A study of Mus musculus with 4 samples.

Results

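Zfp900 to Zfp999 are mouse zinc-finger genes, taken here by symbol as every gene whose symbol is exactly Zfp9 followed by 2 digits. Of the 22180 genes measured under a single symbol, 47 met that rule. Where a gene had several probe sets, its probe set was chosen by the highest mean over the 4 arrays. All 47 matched a protein-coding gene of the same symbol in the RefSeq table (GRCm38.p6). The family was proposed after Zfp935 and Zfp942 were known to lie low on both nimodipine arrays, so the values of these genes are given as a description.

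The cells were N9, an immortalised line of mouse microglia, grown in medium with 10% serum. Cells of 2 arrays had received vehicle, those of 1 array 10 µM nimodipine and those of 1 array 20 µM nimodipine. Nimodipine, a drug of the dihydropyridine class, closes voltage-gated calcium channels of the L type. The labels speak of a respective vehicle without saying which vehicle array belongs to which dose, and they give no exposure time. They do not say whether the arrays came from separate cultures, so the spread between them may be technical. Values are log2 RMA expression, and their precision is limited by having 4 arrays. In such bulk RNA, fewer cells expressing a gene and less RNA per cell cannot be told apart.

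Most genes with such numbers encode proteins with tandem C2H2 zinc fingers, each finger a loop held by a zinc ion that contacts a few DNA bases. Many also carry a KRAB domain, which recruits the co-repressor TRIM28 and, through it, the histone methyltransferase SETDB1 and heterochromatin proteins. The best known task of this KRAB zinc-finger class is silencing of transposable elements, above all endogenous retroviruses. The genes lie in tandem arrays that grew by duplication, so neighbours can be close copies of each other.

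The promoters of the genes that the results turn on are shown first, because they show how alike some of these copies are. RefSeq windows (GRCm38.p6) run from 250 bases before to 50 bases after the start of a gene and were found for 43 of the 47 genes. Zfp942 (chr17:21962415-21962714, minus strand) and Zfp944 (chr17:22361351-22361650, minus strand) were the closest of 903 pairs, with 274 of 275 aligned positions identical (99.6%). The capital in each marks the position that differs, and the windows are offset at their ends.
Zfp942: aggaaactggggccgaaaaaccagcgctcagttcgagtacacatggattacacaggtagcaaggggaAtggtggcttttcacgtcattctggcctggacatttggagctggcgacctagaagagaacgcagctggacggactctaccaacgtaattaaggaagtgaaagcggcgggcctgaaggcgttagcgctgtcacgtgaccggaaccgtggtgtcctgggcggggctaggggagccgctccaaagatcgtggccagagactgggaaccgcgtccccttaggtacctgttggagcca
Zfp944: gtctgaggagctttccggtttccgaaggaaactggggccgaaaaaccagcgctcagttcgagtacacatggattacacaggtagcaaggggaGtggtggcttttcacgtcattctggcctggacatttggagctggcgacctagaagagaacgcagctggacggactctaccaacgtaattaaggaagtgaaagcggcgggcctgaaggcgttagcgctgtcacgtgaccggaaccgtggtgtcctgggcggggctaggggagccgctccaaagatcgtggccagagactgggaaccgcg

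Zfp971 (chr2:178023034-178023333, plus strand) and Zfp931 (chr2:178078376-178078675, minus strand) came next, with 262 of 270 aligned positions identical (97.0%). The 8 capitals in each mark the positions that differ.
Zfp971: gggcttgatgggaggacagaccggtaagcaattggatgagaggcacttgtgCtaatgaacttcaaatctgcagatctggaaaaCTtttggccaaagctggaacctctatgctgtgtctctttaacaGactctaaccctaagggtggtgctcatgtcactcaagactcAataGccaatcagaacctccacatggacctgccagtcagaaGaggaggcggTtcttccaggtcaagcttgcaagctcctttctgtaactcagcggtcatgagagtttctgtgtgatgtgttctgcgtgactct
Zfp931: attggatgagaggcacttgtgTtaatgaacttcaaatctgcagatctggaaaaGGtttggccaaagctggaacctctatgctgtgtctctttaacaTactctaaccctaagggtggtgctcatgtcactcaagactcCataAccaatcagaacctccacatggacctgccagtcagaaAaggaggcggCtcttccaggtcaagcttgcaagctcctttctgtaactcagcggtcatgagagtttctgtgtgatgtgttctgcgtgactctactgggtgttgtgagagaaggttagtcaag

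Zfp943 (chr17:21962309-21962608, plus strand) starts 95 bases from Zfp942 on the opposite strand, and their windows share 194 bases. Zfp935 (chr13:62466763-62467062, minus strand) had the lowest 20 µM difference of the family. Capitals mark matches to the searched motifs, which are the GC box GGGCGG on the reverse strand of Zfp943 and the CCAAT box of Zfp935.
Zfp943: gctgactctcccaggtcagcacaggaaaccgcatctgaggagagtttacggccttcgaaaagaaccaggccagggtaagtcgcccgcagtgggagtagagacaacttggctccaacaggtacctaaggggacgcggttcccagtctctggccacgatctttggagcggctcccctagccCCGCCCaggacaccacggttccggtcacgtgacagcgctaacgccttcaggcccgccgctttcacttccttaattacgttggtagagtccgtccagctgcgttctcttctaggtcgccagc
Zfp935: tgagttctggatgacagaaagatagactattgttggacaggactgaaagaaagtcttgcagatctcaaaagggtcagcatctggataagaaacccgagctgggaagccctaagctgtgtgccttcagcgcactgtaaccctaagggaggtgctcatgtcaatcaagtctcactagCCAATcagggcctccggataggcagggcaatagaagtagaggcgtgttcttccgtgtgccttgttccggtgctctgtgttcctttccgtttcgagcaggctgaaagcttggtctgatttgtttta

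Both strands of each window were searched for 4 motifs, none of which contains another. CCAAT was found in 32 of the 43 member promoters (74.4%) and in 37.4% of all 32851 promoter windows. GGGCGG was found in 18 members (41.9%) and 35.7% of all windows, and CCGGAAG in 8 members (18.6%) and 8.86% of all windows. TATAAA was found in 0 of 43 and in 13.6% of all windows. CCAAT was held by 9 of the 14 promoters of genes that lay below both vehicle arrays at both doses and by 23 of the 29 others. A match is a string of letters and was not tested as a binding site.

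No gene of the family passed the test of nimodipine against vehicle. limma with Benjamini-Hochberg adjustment over 22180 genes called 0 of 47, and 0% of all genes were called. The lowest adjusted p among the 47 was 0.792. At an unadjusted p under 0.05 there were 11 of the 47 genes, 9 of them lower, beside 1191 of all 22180 genes, 660 of them lower. Because both doses form 1 group in that test, any dose effect counts as spread.

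The array values nevertheless lay on the low side for much of the family. Both nimodipine arrays were below both vehicle arrays for 17 of 47 genes (36.2%), beside 18.2% of all genes. They were above both vehicle arrays for 5 of 47 (10.6%), beside 19.2% of all genes. Without Zfp935 and Zfp942, whose low values were known, 15 of 45 (33.3%) lay below both. The doses share these vehicle arrays, so a low or high vehicle pair enters both differences.

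The 10 µM array was under the vehicle mean for 27 of 47 genes (57.4%), beside 47.6% of all genes. Its median log2 difference was -0.12, beside 0.01 over all genes. The 20 µM array was under the vehicle mean for 34 of 47 (72.3%), beside 50.7% of all genes. The median at that dose was -0.15, beside -0.00 over all genes. Vehicle 2 minus vehicle 1 had a median of -0.01 over the same 47 genes, with 25 lower and 22 higher. A difference of 0.5 or more on the lower side was reached by 10 genes at 10 µM (21.3%, beside 6.18% of all genes). At 20 µM it was reached by 8 (beside 1.29%). Without Zfp935 and Zfp942 these counts were 8 and 6 of 45. On the higher side 0.5 or more was reached by 3 genes at 10 µM (3.92% of all genes) and by 0 at 20 µM (1.45% of all genes). Between the vehicle arrays 6 of the 47 differed by 0.5 or more either way, beside 3.58% of all genes. This size was set after the values had been seen.

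Brightness bears on these counts. The median of all values was 5.04 and serves here as a mark of dim probe sets, since the deposited values carry no detection call. It was reached by the mean of 28 of the 47 genes, called bright here, and 19 were dimmer. Among the 28 the medians were -0.27 at 10 µM and -0.19 at 20 µM, and 12 lay below both vehicle arrays (42.9%, beside 22.3% of all bright genes) and 1 above (3.57%, beside 16.3%). Among the 19 dimmer genes the medians were 0.01 and -0.11, and 5 lay below and 4 above, beside 12.7% and 23.0% of all dim genes.

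**Figure D1:**
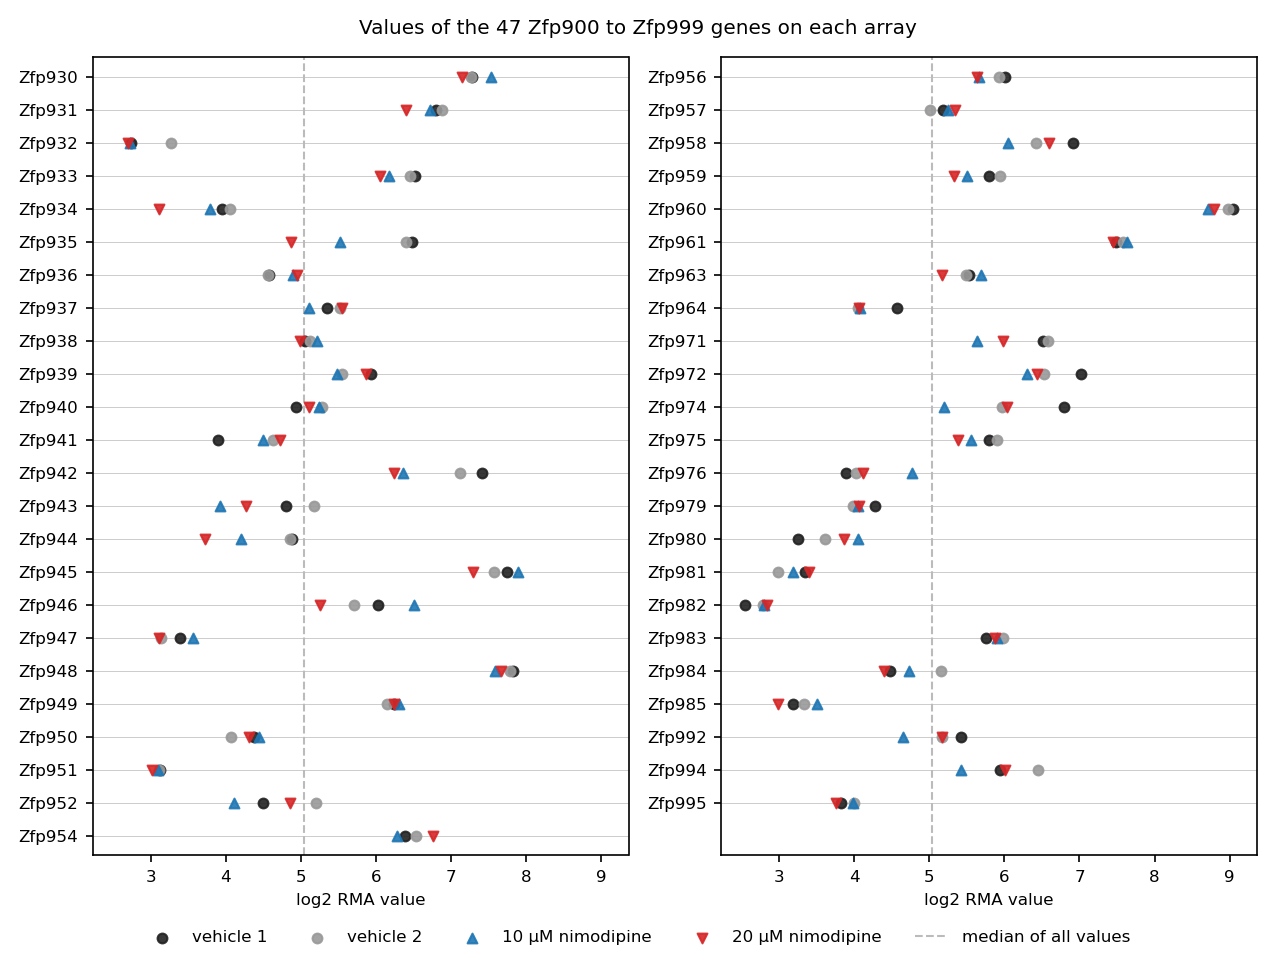
Log2 RMA value (x axis) of each of the 47 genes (rows, by symbol) on the 2 vehicle arrays (circles), the 10 µM array (upward triangles) and the 20 µM array (downward triangles); the dashed line is the median of all values, 5.04. Both triangles lie left of both circles for 17 genes, among them Zfp935, Zfp942, Zfp943 and Zfp944.

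Zfp935, on chromosome 13, had the lowest 20 µM difference of all 22180 genes. Its log2 values were 6.48 and 6.41 with vehicle, 5.52 at 10 µM and 4.87 at 20 µM. The vehicle arrays lay 0.07 apart, both nimodipine arrays were lower, and the 20 µM array was the lowest. The level was thus lower by 1.90-fold at the lower dose and by 2.97-fold at the higher, where the value is itself under the median of all values and the fold may be too small. Nimodipine minus vehicle was -1.25 ± 0.22 (limma SE, 2 arrays per group), with an adjusted p of 0.792. In the limma fit of 3 groups, where each single array is taken to be as variable as the vehicle pair, Zfp935 was the only member called at 10 µM (adjusted p = 0.0496). That contrast called 1.59% of all genes. At 20 µM the same fit called 0 members and 0% of all genes.

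Its neighbour Zfp934 was dim on every array. It read 3.95 and 4.06 with vehicle, 3.80 at 10 µM and 3.11 at 20 µM. The 20 µM array stood apart at the low end, while the 10 µM array was 0.21 under the vehicle mean. As in Zfp935, the larger difference was at 20 µM (-0.89).

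Zfp942, Zfp943 and Zfp944 lie in a row of 10 family members on chromosome 17 that runs from Zfp948 to Zfp945, with at most 10 other genes between neighbours in the RefSeq order. Zfp942 read 7.42 and 7.12 with vehicle, 6.36 at 10 µM and 6.24 at 20 µM. Both nimodipine arrays were under both vehicle arrays, by 1.88-fold at 10 µM and 2.05-fold at 20 µM against their mean, and the groups did not overlap. Its mean difference was -0.97 ± 0.15 (limma SE, adjusted p = 0.792), with the smallest unadjusted p of all 22180 genes.

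Zfp943, the gene that starts beside Zfp942, read 4.80 and 5.17 with vehicle, 3.92 at 10 µM and 4.28 at 20 µM. Its difference at 10 µM (-1.07) was larger than at 20 µM (-0.71), the reverse of the order in Zfp942, and its vehicle arrays lay 0.37 apart. A second, dimmer probe set of Zfp943 read 3.15 and 3.32 with vehicle, 3.36 at 10 µM and 3.08 at 20 µM. On that probe set the nimodipine arrays did not both lie below the vehicle arrays.

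Zfp944, whose promoter window is nearly the same as that of Zfp942, read 4.88 and 4.86 with vehicle, 4.20 at 10 µM and 3.73 at 20 µM. The vehicle arrays were 0.02 apart and both nimodipine arrays were lower, so these groups did not overlap either. All values were under the median of all values, and no fold is given. Zfp758, a numbered zinc-finger gene outside the family, starts 63 bases from Zfp944 on the opposite strand. It read 3.57 and 3.05 with vehicle, 3.57 at 10 µM and 3.36 at 20 µM, within or at the edge of its own vehicle spread. Whether the probes of Zfp942 and Zfp944 also bind the transcript of the other copy was not tested.

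**Figure D2:**
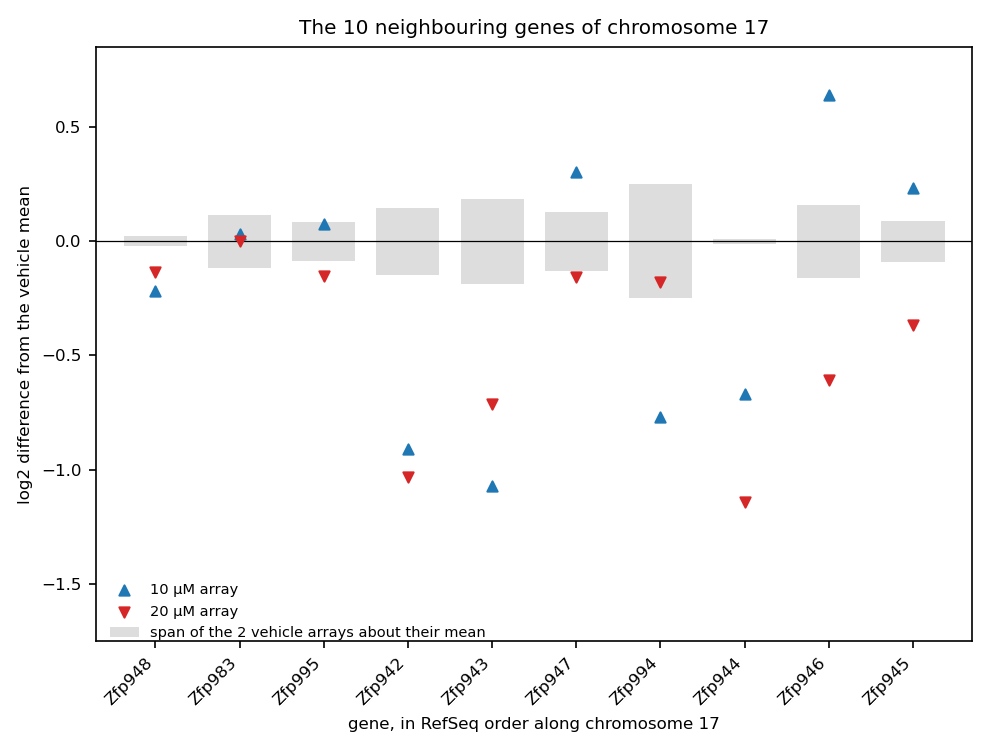
Log2 difference of the 10 µM array (upward triangles) and the 20 µM array (downward triangles) from the mean of the vehicle arrays, for the 10 family members in order along chromosome 17; grey bars span the vehicle arrays about their mean. Zfp942, Zfp943, Zfp944 and Zfp948 have both triangles below the bar, while Zfp946 has a triangle at 0.64 and one at -0.61.

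The low values were not shared by the whole row. At 20 µM 9 of the 10 were lower than the vehicle mean (median -0.27), and at 10 µM 5 of 10 (median -0.09). Zfp948 read 7.83 and 7.78 with vehicle, 7.59 at 10 µM and 7.67 at 20 µM, a small difference on the same side. Zfp983 read 5.75 and 5.99 with vehicle, 5.90 at 10 µM and 5.87 at 20 µM, both inside the vehicle values. Zfp994 read 5.94 and 6.44 with vehicle and 5.42 at 10 µM and 6.01 at 20 µM. For Zfp994 only the 10 µM array left the vehicle range. The remaining members of the row, Zfp995, Zfp947, Zfp946 and Zfp945, were higher than the vehicle mean at 10 µM, by 0.07 to 0.64, and lower at 20 µM, by log2 differences of -0.15 to -0.61.

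Zfp946 had the largest difference between the doses of the 47 genes. It read 6.03 and 5.71 with vehicle, 6.51 at 10 µM and 5.26 at 20 µM. The doses lay on opposite sides of both vehicle arrays, 1.25 apart on the log2 scale, and the vehicle arrays were 0.32 apart. Zfp945 had the same order, with 7.75 and 7.57 with vehicle, 7.89 at 10 µM and 7.29 at 20 µM.

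All 3 members of a row on chromosome 2 had both nimodipine arrays below both vehicle arrays. Zfp971 read 6.51 and 6.58 with vehicle, 5.63 at 10 µM and 5.98 at 20 µM, which is 1.89-fold and 1.49-fold lower. Zfp931, with the closely similar promoter window shown above, read 6.80 and 6.89 with vehicle, 6.72 at 10 µM and 6.41 at 20 µM. The 10 µM difference was -0.92 for Zfp971 and -0.12 for Zfp931, and the 20 µM differences were -0.57 and -0.44. Near-identical windows thus went with unlike values at 10 µM here and with more similar ones for Zfp942 and Zfp944. Zfp972, the other member of the row, read 7.02 and 6.53 with vehicle, 6.30 at 10 µM and 6.43 at 20 µM. Its vehicle arrays differed by 0.49, more than either dose differed from their mean, so its low position rests on a wide vehicle pair.

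The annotation also lists Zfp971 on probe sets with several symbols from the same array of copies. There were 13 such probe sets carrying Zfp966, Zfp967, Zfp968, Zfp970 or Zfp971 among their symbols. Their 10 µM differences ran from -0.62 to 0.08 (median -0.19) and their 20 µM differences from -0.29 to -0.04 (median -0.11). They were lower than the vehicle mean on 9 of 13 probe sets at 10 µM and on all 13 at 20 µM, and 1 pair had the same values on every array to within 0.001. The differences of the probe set that carries only Zfp971 lay outside these ranges at both doses.

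Chromosome 4 held 8 members. Loss of zinc-finger clusters on this chromosome is known to release endogenous retroviruses in mouse stem cells. Only Zfp933 and Zfp992 of its members were bright. Zfp933 read 6.52 and 6.45 with vehicle, 6.18 at 10 µM and 6.05 at 20 µM, with both nimodipine arrays lower. Zfp992 read 5.43 and 5.17 with vehicle, 4.65 at 10 µM and 5.16 at 20 µM. For Zfp992 the 20 µM array lay under vehicle 2 by less than 0.01, so only the 10 µM array was clearly apart. Zfp980 went the other way, with 3.25 and 3.61 with vehicle, 4.04 at 10 µM and 3.86 at 20 µM. It was above both vehicle arrays at both doses, but all its values were dim and the vehicle arrays differed by 0.36. The 20 µM difference of Zfp979, Zfp981, Zfp982, Zfp984 and Zfp985 ran from -0.41 to 0.23, and the vehicle arrays of Zfp984 were 0.69 apart.

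On chromosome 7, Zfp975 and its neighbour Zfp976 differed in direction although their promoter windows were 89.3% identical. Zfp975 read 5.80 and 5.90 with vehicle, 5.56 at 10 µM and 5.39 at 20 µM, below both vehicle arrays at both doses. Zfp976 read 3.89 and 4.02 with vehicle, 4.76 at 10 µM and 4.11 at 20 µM, above both vehicle arrays but dim. Zfp936, another close copy on that chromosome, read 4.58 and 4.57 with vehicle, 4.90 at 10 µM and 4.96 at 20 µM. It too was above both vehicle arrays, by 0.33 and 0.38, and dim.

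Zfp974, also on chromosome 7, had the lowest 10 µM difference of the family and also the widest vehicle pair. It read 6.80 and 5.97 with vehicle, 5.19 at 10 µM and 6.04 at 20 µM. The 10 µM array was the lowest, 1.19 under the vehicle mean on the log2 scale, while the vehicle arrays were 0.83 apart and the 20 µM array lay between them. Against vehicle 2 alone the 20 µM difference was 0.07 in place of -0.34. The next widest vehicle pairs, 0.69 to 0.74 apart, belonged to the dim genes Zfp941, Zfp952 and Zfp984. Zfp941 read 3.89 and 4.63 with vehicle, 4.50 at 10 µM and 4.73 at 20 µM. Zfp952 read 4.50 and 5.21, then 4.11 and 4.85. Zfp984 read 4.47 and 5.16, then 4.73 and 4.40. In each of these 3 genes 1 nimodipine array was within the vehicle range and 1 outside it.

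The 20 members outside any row were mixed, with 11 lower and 9 higher than the vehicle mean at each dose and a 20 µM median of -0.00. Of them 5 lay below both vehicle arrays at both doses (25%) and 3 above (15%), beside 18.2% and 19.2% of all genes. Zfp959, on chromosome 17 but outside the row, read 5.80 and 5.94 with vehicle, 5.50 at 10 µM and 5.32 at 20 µM. Zfp956, on chromosome 6, read 6.01 and 5.93 with vehicle, 5.66 at 10 µM and 5.63 at 20 µM. Zfp960 read 9.04 and 8.97 with vehicle, 8.72 at 10 µM and 8.80 at 20 µM. In these 3 genes the vehicle arrays lay within 0.14 of each other and neither nimodipine array overlapped them. Their limma differences were -0.46 ± 0.14, -0.33 ± 0.13 and -0.25 ± 0.13 (SE, 2 arrays per group), each with an adjusted p of 0.792.

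Other bright members showed no such shift or went up and down with the dose. Zfp961, on chromosome 8, read 7.49 and 7.59 with vehicle, 7.63 at 10 µM and 7.44 at 20 µM. Zfp930, on the same chromosome, read 7.28 and 7.27 with vehicle, 7.53 at 10 µM and 7.14 at 20 µM. For both, the 10 µM array was the highest and the 20 µM array the lowest. The same order held for Zfp963, at 5.53 and 5.49 with vehicle, 5.69 at 10 µM and 5.17 at 20 µM. Zfp958 was lower at 10 µM only, with 6.92 and 6.42 with vehicle, 6.05 at 10 µM and 6.59 at 20 µM. Zfp954 was highest at 20 µM, with 6.38 and 6.53 with vehicle, 6.28 at 10 µM and 6.76 at 20 µM. Zfp957 was the only bright member with both nimodipine arrays above both vehicle arrays, at 5.24 and 5.35 beside 5.18 and 5.01.

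Zfp932, known for repressing endogenous retroviruses together with a close copy, was dim on every array. It read 2.73 and 3.27 with vehicle, 2.72 at 10 µM and 2.69 at 20 µM, and 3 of the 4 values lay within 0.04 of each other. The remaining genes, Zfp937, Zfp938, Zfp939, Zfp940, Zfp949, Zfp950, Zfp951 and Zfp964, had differences from the vehicle mean of -0.32 to 0.22 over both doses.

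**Figure D3:**
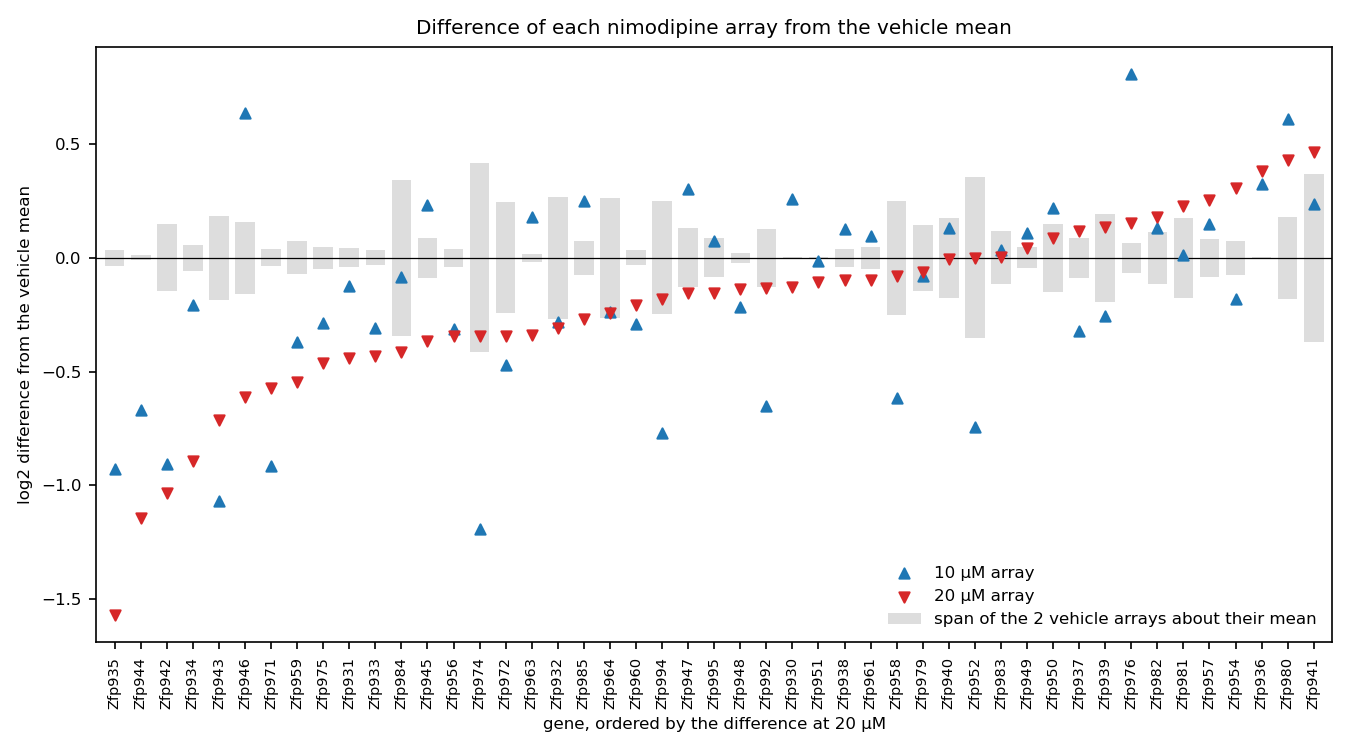
Log2 difference of the 10 µM array (upward triangles) and the 20 µM array (downward triangles) from the vehicle mean for the 47 genes, ordered by the 20 µM value; grey bars span the 2 vehicle arrays about their mean. The 20 µM values run from -1.57 for Zfp935 to 0.47 for Zfp941, and 8 genes lie at -0.5 or below.

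Large differences at 20 µM were few over the whole array. Only 11 of 22180 genes (0.0496%) were lower than the vehicle mean by 1 or more at 20 µM. Zfp935, Zfp944 and Zfp942 were 3 of them. Zfp935 and Zfp942 were known to lie low beforehand, and without them 1 of 45 members was lower by that much. At 10 µM, 2 members, Zfp974 and Zfp943, were among the 234 genes lower by that much (1.06% of all genes). Lower by 0.5 or more at both doses were 5 members, of 76 such genes in all. They were Zfp943, Zfp944 and Zfp971, and Zfp935 and Zfp942, which were known to lie low. With its 2 probe sets averaged, the Zfp943 differences were -0.47 at 10 µM and -0.43 at 20 µM, short of both sizes. Both dose differences exceeded the gap between the vehicle arrays for 25 of the 47 genes (53.2%), beside 36.0% of all genes.

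The other numbered zinc-finger genes, 289 with Zfp and up to 3 digits, also lay on the low side. Both nimodipine arrays were below both vehicle arrays for 86 of them (29.8%) and above both for 31 (10.7%). The shares of all genes were 18.2% and 19.2%. Under the vehicle mean were 189 of the 289 (65.4%) at 10 µM, beside 57.4% of the family. At 20 µM there were 177 (61.2%), beside 72.3% of the family. The median difference was -0.08 for the 10 µM array and -0.06 for the 20 µM array, and the vehicle arrays differed by a median of -0.05. Lower by 0.5 or more at 20 µM were 6 of the 289 (2.08%), and at 10 µM 28 (9.69%). The 20 µM count for the family was 8 of 47, or 6 of 45 without Zfp935 and Zfp942. The difference between these lists was not tested.

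Of the 36 symbols listed for co-repressors and chromatin partners, 30 were measured. Of these, 0 passed the test (limma, lowest adjusted p 0.792, and 0 at an unadjusted p under 0.05). Trim28, which links KRAB domains to silencing, read 10.11 and 10.07 with vehicle, 9.55 at 10 µM and 9.95 at 20 µM, below both vehicle arrays. Setdb1, the methyltransferase it recruits, read 9.62 and 9.44 with vehicle, 9.39 at 10 µM and 9.59 at 20 µM, and overlapped them. Atf7ip, a partner of Setdb1, read 10.38 and 10.40 with vehicle, 9.61 at 10 µM and 10.34 at 20 µM, with the 10 µM array apart. The median of the list was -0.14 for the lower dose and -0.03 for the higher. Of the 30 genes 29 were bright, 9 lay below both vehicle arrays (30%) and 2 above (6.67%). The shares of all bright genes were 22.3% and 16.3%. Smarcad1, a chromatin remodeller, was lower by log2 differences of -0.22 at 10 µM and -0.44 at 20 µM, Tasor, a subunit of the HUSH silencing complex, by -0.47 and -0.18, and Pias1, a SUMO ligase, by -0.43 and -0.10. Daxx, a histone chaperone, was higher by 0.35 and 0.14.

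Markers of cell types were read by the same mark. Of 13 microglia and macrophage markers, 10 were bright, and P2ry12, Tmem119 and Adgre1 were not. The mark was reached by 12764 of all 22180 genes, so it does not identify a cell type. That mark was also reached by 2 of 5 astrocyte, 2 of 5 neuron, 3 of 4 measured oligodendrocyte and 2 of 5 fibroblast and endothelium markers. The microglial list had a median difference of -0.15 on the 10 µM array and 0.04 on the 20 µM array. The part of cell makeup in the values above was not tested.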

How the data were processed

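RNA of N9 cells was measured on 4 Affymetrix arrays. For each probe set the authors deposited a log2 value, computed by RMA in Expression Console 1.2.1.20, per the submitters' processing notes. RMA corrects background, sets all arrays to a common distribution and summarises probes, and a change common to most genes would not show. The array medians lay between 5.02 and 5.06. The genome build is not given in the sources used here. The table held 41345 probe sets: 23521 with 1 symbol, 1814 with several and 16010 unlisted. Taking the highest mean left 22180 genes.

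Nimodipine was compared with vehicle by limma 3.58.1 (R 4.3.3; lmFit and eBayes, two-sided, Benjamini-Hochberg over 22180 genes, threshold 0.05), with both doses as 1 group. The procedure was tested on simulated data. Each dose has 1 array, so its difference from the vehicle mean is given without a test. The limma fit of 3 groups has 1 residual degree of freedom, from the vehicle pair. Promoter windows and gene order came from RefSeq, and windows were aligned globally, with gaps at the ends free, in Biopython 1.88, counting pairs with at least 200 aligned positions and 85% identity.

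The members and lists were chosen with earlier results of these data known. Named were up to 12 members each way beyond both vehicle arrays that are bright, those differing by 1 or more at a dose, the 6 brightest, the 4 widest vehicle pairs, the 5 bright members each way with the largest difference between the doses, named members whose probe sets differ in the sign of the mean over both doses (there were none, though those of Zfp943 differ in sign at 10 µM), and of the co-repressors Trim28, Setdb1 and the 5 with the largest mean difference. Other members are named to account for the whole family and were chosen after their values were seen. Rows of neighbours and the 0.5 difference were also set after seeing the data. Alternatives covered dim probe sets, probe set choice, scaling, eBayes with a trend, the fit of 3 groups, single vehicle arrays and leaving out each array. Finger and KRAB patterns in proteins were not analysed here.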

Additional observations from a re-analysis of the deposited data

Results flagged for a closer look

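For 10 of the 47 genes (21.3%, beside 18.9% of all genes) the nimodipine arrays lay on opposite sides of both vehicle arrays. With 1 array per dose this difference between the doses was not tested. The 20 µM array was below the 10 µM array by these log2 differences, each 20 µM minus 10 µM: Zfp946 -1.25, Zfp945 -0.60, Zfp985 -0.52, Zfp963 -0.52, Zfp947 -0.46, Zfp930 -0.39, Zfp938 -0.23 and Zfp961 -0.19. It was above the 10 µM array by 0.49 for Zfp954 and 0.44 for Zfp937. Zfp945, Zfp946 and Zfp947 are in the chromosome 17 row, and Zfp930 and Zfp963 in a row on chromosome 8. Zfp947 and Zfp985 were dim. Groups of 1 or 2 arrays are too small for a check of single outlying arrays.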

How the results depend on the processing

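With dim probe sets left out (28 members), the median at 10 µM was -0.27 in place of -0.12, that between the vehicle arrays -0.056 in place of -0.01, that of nimodipine against vehicle -0.21 in place of -0.08, and 1 member in place of 5 lay above both vehicle arrays. With all probe sets of a gene averaged, the nimodipine median was -0.14. Leaving out single arrays gave nimodipine medians from -0.15 to -0.10. Without the 20 µM array only the 10 µM array is set against the vehicle pair, and the Zfp935 difference was its 10 µM difference, -0.93. With 3 groups, 0 members were called for the mean of the doses and the lowest adjusted p among members was 0.0556. The count below both vehicle arrays ran from 12 (dim probe sets left out) to 18 over its alternatives. Of 54 single-dose values of named members, 6 changed sign, each under a single vehicle array (Zfp941 and Zfp984 at 10 µM, Zfp952, Zfp958, Zfp974 and Zfp994 at 20 µM). The set without Zfp935 and Zfp942 was added after seeing the data; its median was -0.09 for the 10 µM array and -0.14 for the other dose. No paired analysis was possible because the nimodipine arrays carry no replicate number. Signal over background is not known, so differences of dim genes may be too small.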

Other observations

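Another 9 genes with such symbols (Zfp953, Zfp965, Zfp966, Zfp967, Zfp968, Zfp970, Zfp977, Zfp991 and Zfp993) were measured only on probe sets that carry several symbols and are not members. There were 21 probe sets with several symbols and at least 1 in this number range. Of them 13 lay below both vehicle arrays at both doses and 1 above. The shares of the 22180 genes with a single symbol were 18.2% and 19.2%. No share over all probe sets with several symbols is given here. The chromosome 2 copies made up 13 of the 21 probe sets and 8 of those below both. These copies share symbols and 1 pair had the same values, so the probe sets are not separate measurements. The probe set shared by Zfp953 and Zfp456 read 5.80 and 5.82 with vehicle, 4.75 at 10 µM and 5.32 at 20 µM. The nimodipine arrays were both lower there, and the 10 µM array was the lowest. The values of the 13 probe sets of the chromosome 2 copies on single arrays ran from 4.54 to 11.2.

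The chromosome 17 row also holds 4 measured zinc-finger genes from outside the number range. Zfp760 read 6.52 and 6.73 with vehicle, 6.05 at 10 µM and 6.32 at 20 µM, and Zfp229 read 5.81 and 5.82, then 5.59 and 5.54. These 2 lay below both vehicle arrays at both doses. Zfp820 and Zfp758 did not and were dim. In the chromosome 8 row, Zfp868 read 5.80 and 5.44 with vehicle, 4.82 at 10 µM and 5.21 at 20 µM, while Zfp869 read 7.13 and 6.99, then 7.25 and 7.27. Zfp868 and Zfp869 thus lay on opposite sides of their vehicle arrays.

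Of the 4 members with more than 1 probe set, Zfp937, Zfp939 and Zfp979 had further probe sets under the median of all values. The second probe set of Zfp939 read 3.94 and 4.02 with vehicle, 4.27 at 10 µM and 3.92 at 20 µM, against 5.93, 5.54, 5.48 and 5.87 on the chosen one. The 10 µM array was the highest on the former and the lowest on the latter.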
